A study of Rattus norvegicus with 6 samples.

Results

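Fat cells are not part of the colon mucosa, but they lie in the mesenteric and serosal fat that adheres to the outer wall of the gut, and a piece of whole colon can carry some of them. The present comparison followed 10 marker genes of adipocytes through the colon arrays of the azoxymethane (AOM) study: Adipoq, Cfd and Lep, which encode secreted adipokines, Cidec, Plin1 and Plin4, which encode proteins of the lipid droplet surface, Lpl and Fabp4 for the uptake and binding of fatty acids, Lipe for lipolysis, and Aqp7 for the export of glycerol. Probes were chosen by the transcript accession that the array design gives them, with no use of the measured values. Of the 10 genes, 8 had a probe matched in this way, with 9 probes among the 30367 on the array, and 7 genes with 8 probes were in the deposited log2 values of 23997 probes. No probe was matched to Plin1 or Plin4, and Aqp7 was only in the scanner intensities. The question was whether these genes differed between the strains and whether they moved together from rat to rat, as genes of 1 tissue piece would.

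The colons came from 3 S rats (Dahl salt-sensitive, SS/Jr) and 3 S.LEW congenic rats, strain S.LEW(10)x12x2x3x5, which carry a short Lewis segment of chromosome 10 on the S background. All 6 were males on a low-salt diet, all had been given AOM, a colon carcinogen, as 2 weekly intraperitoneal injections of 15 mg/kg from 6 weeks of age, and all were 30 weeks old when the colon was taken, opened and washed. There was no group without AOM. RNA of each rat was labeled with Cy3 and hybridized to its own single-color Agilent array, and the rats are called C1, C2 and C3 (S.LEW congenic) and S1, S2 and S3 (S) after the labels. Whether fat was trimmed from the wall, and whether the pieces held tumor, is not given in the sources used here.

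By the scan identifier in the scanner headers the arrays formed 2 groups, called slides here. That 1 identifier stands for 1 slide was not checked. Slide 1 held C1 with all 3 S rats and slide 2 held C2 and C3, so that within 1 slide the strains can only be compared as C1 against S1, S2 and S3. The share of spots well above background ran from 73.8% (C2) to 87.6% (S3), and none was saturated. The S rats were not alike: over all probes S1 and S3 correlated at 0.980 with each other, while S2 correlated at 0.90 and 0.937 with them and at 0.967 to 0.976 with the 3 congenic rats. Calls that are lost within slide 1 are named with the results. In that comparison the spread comes from the 3 S rats alone, and C1 is assumed to vary like them. The tissue was colon by its markers, since all 7 tested colon epithelium genes of 9 listed, among them Cdx2, Krt20 and Epcam, were well above background on all 6 arrays.

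White adipocytes store triglyceride in 1 large droplet coated by perilipins and Cidec. They take up fatty acids that lipoprotein lipase releases, hold them on Fabp4, and release them again through hormone-sensitive lipase, the product of Lipe. The transcription factors Pparg and Cebpa switch this program on, and adiponectin, adipsin (Cfd) and leptin are its best known secreted products. Several of the genes are also read in other cells of the gut wall: Fabp4 in capillary endothelium and macrophages, Lpl in muscle and macrophages.

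The promoters of Adipoq and Cfd are shown because these were the 2 genes whose strain difference passed the p and fold cut-offs of the study when applied to limma, and those of Cidec and Lep because they hold the letters TTGCNNAA of a C/EBP motif and behaved unlike each other on the arrays. Each is the 250 bases before the RefSeq start of the gene in assembly GRCr8, 5′ to 3′ on the strand of the gene, at chr11:91240170-91240419 for Adipoq, chr7:10465497-10465746 for Cfd and chr4:148137116-148137365 for Cidec (all minus strand) and chr4:58626288-58626537 for Lep (plus strand). Capitals mark the match.
Adipoq: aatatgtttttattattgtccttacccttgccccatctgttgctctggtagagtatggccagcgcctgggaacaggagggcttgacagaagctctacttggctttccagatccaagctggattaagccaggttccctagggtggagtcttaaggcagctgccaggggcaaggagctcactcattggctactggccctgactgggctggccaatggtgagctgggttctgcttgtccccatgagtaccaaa
Cfd: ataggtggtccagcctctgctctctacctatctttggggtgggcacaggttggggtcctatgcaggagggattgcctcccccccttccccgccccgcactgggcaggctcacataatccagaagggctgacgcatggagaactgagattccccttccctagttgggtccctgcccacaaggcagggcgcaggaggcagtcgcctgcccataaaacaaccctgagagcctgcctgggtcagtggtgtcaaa
Cidec: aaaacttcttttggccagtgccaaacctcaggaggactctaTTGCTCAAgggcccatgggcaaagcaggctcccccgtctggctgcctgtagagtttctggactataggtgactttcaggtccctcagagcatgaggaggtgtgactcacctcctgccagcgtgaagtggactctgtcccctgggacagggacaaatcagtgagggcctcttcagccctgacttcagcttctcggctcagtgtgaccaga
Lep: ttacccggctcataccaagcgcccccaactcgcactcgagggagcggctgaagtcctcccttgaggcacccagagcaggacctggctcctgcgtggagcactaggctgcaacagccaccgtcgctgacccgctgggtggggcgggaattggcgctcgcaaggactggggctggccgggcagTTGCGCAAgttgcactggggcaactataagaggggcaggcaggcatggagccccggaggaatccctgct
Of the 10 genes, 6 had a promoter in the table used, and Fabp4, Lpl, Lipe and Aqp7 had none there. The letters TTGCNNAA, searched on both strands, were in 3 of these 6 windows (Plin1, Lep and Cidec) and in 9.22% of the 33469 rat promoters of the same length. The match began 69 bases before the start in Lep, 77 in Plin1 and 209 in Cidec. The letters AGGTCA of a PPAR site were in none of the 6 and in 14.1% of all promoters, and 2 such sites separated by 1 base (AGGTCANAGGTCA, which contains the former) were in none of the 6 and in 0.0508% of all. TATAAA was in none of the 6 and in 12.9% of all, and CACGTG in none of the 6 and in 5.59% of all. A match is a description of letters only.

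Adiponectin and adipsin transcripts were the members with the largest strain difference. Adipoq, the adipocyte hormone adiponectin, had log2 signals of 7.75 (C1), 8.40 (C2) and 9.91 (C3), against 7.33 (S1), 6.56 (S2) and 6.44 (S3). All 3 congenic rats lay above all 3 S rats, and the spread was wide among the congenic rats, with C3 far above the others. The means were 8.69 ± 1.1 and 6.78 ± 0.48 (SD, n = 3 per strain), a difference of 1.91 on the log2 scale with a standard error of 0.57, or 3.76-fold. The unadjusted limma p was 0.0141 and the adjusted p over all 23997 probes was 0.315, so that with limma Adipoq passed the cut-offs of the study (unadjusted p under 0.05 and at least 2-fold) but no correction for multiple tests. By the methods' t-test it did not pass the p cut-off, whereas Cfd did. Without C3 the difference was 1.30, and within slide 1, or with slide as a block, it was 0.98 and no longer passed.

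Cfd, which encodes adipsin, the complement factor D that fat cells secrete, followed Adipoq closely. Its log2 signals were 9.42 (C1), 10.13 (C2) and 10.98 (C3), against 8.83 (S1), 8.31 (S2) and 8.68 (S3). The order of the congenic rats was that of Adipoq, and again no S rat reached a congenic rat. The means were 10.17 ± 0.78 and 8.61 ± 0.26 (SD, n = 3 per strain), a difference of 1.57 with a standard error of 0.41, or 2.97-fold. The limma p was 0.00744 unadjusted and 0.276 adjusted. Cfd passed both cut-offs with each rat left out in turn, where the difference was between 1.17 and 1.95, as did Adipoq, but within slide 1 the difference was 0.81 and did not pass.

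Lep, the satiety hormone leptin, was near the limit of the array. Its log2 signals were 4.46 (C1), 5.94 (C2) and 3.82 (C3), against 3.93 (S1), 4.30 (S2) and 3.77 (S3), and it was well above background only in C2, S1 and S3. C2 stood above all others, while C3, the rat with the highest Adipoq and Cfd, had the lowest value of its strain. The strain difference of 0.74 (standard error 0.53) did not pass (limma adjusted p = 0.528), and without C2 it was 0.14.

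**Figure D1:**
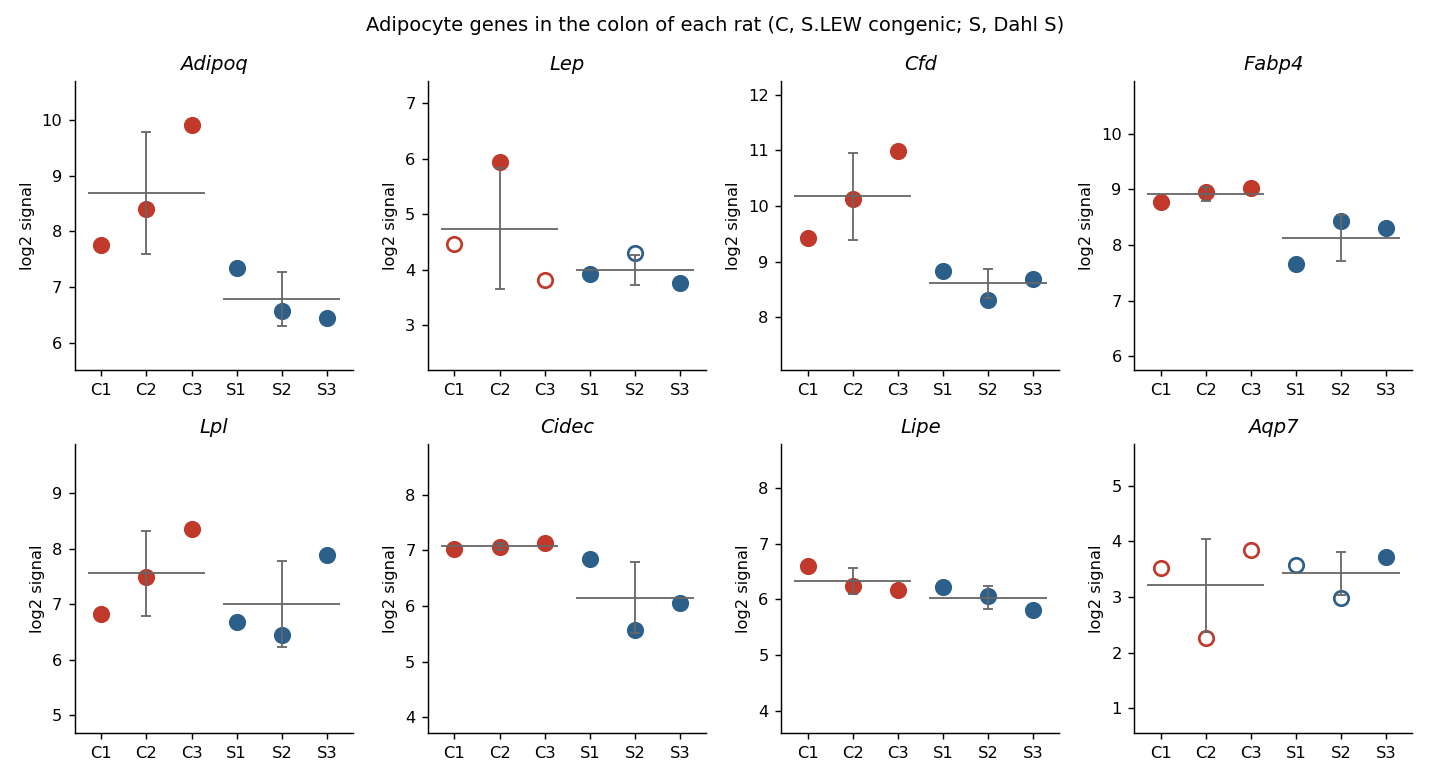
Normalized log2 signal of the 8 adipocyte genes with a probe, 1 panel per gene and 1 point per rat (red, S.LEW congenic rats C1 to C3; blue, S rats S1 to S3). Filled points are well above background and open points are not; horizontal lines are strain means with SD bars (n = 3), and every axis spans the same number of log2 units. The strains do not overlap for Adipoq, Cfd, Fabp4 and Cidec, and overlap for Lep, Lpl, Lipe and Aqp7.

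Among the lipid droplet genes only Cidec was measured. Cidec, which promotes the fusion of droplets into 1 large droplet, had log2 signals of 7.02 (C1), 7.07 (C2) and 7.13 (C3), against 6.84 (S1), 5.57 (S2) and 6.05 (S3). The congenic rats were nearly equal and the S rats were spread, with S1 only 0.18 below the lowest congenic rat. The difference was 0.92 (standard error 0.33, limma adjusted p = 0.354), just under 2-fold, and without S1 it was 1.26 and passed both cut-offs.

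Of the genes of fatty acid handling, Fabp4, the fatty acid binding protein of adipocytes, had log2 signals of 8.77 (C1), 8.96 (C2) and 9.02 (C3), against 7.65 (S1), 8.42 (S2) and 8.30 (S3). The strains did not overlap, but here S1 was the lowest rat, unlike for Adipoq, Cfd and Cidec, where it was the highest S rat. The difference was 0.79 (standard error 0.25, 1.73-fold, limma adjusted p = 0.330). Without S2 its adjusted limma p was 0.0437, the only member to pass an adjusted cut-off of 0.05 with any 1 rat left out, in a fit in which 5553 of all 23997 probes passed. Of the endothelial genes, 5 tested of 6 listed, none passed the cut-offs in either direction, their median log2 difference was -0.24 with all rats and 0.08 without S2, and their mean deviation was -0.38 to -0.01 in the congenic rats and 0.08 to 0.22 in the S rats. The part of endothelium in the values of Fabp4 was not tested.

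Lpl, the lipase that frees fatty acids from circulating triglyceride, had log2 signals of 6.83 (C1), 7.50 (C2) and 8.34 (C3), against 6.68 (S1), 6.44 (S2) and 7.88 (S3), as the mean of 10 spots per array. The strains overlapped, with S3 above C1 and C2. The difference of 0.56 (standard error 0.52, limma adjusted p = 0.609) was well within the spread of the rats, and within slide 1 and with slide as a block it was -0.17. The congenic rats alone had the order of Adipoq and Cfd, with C3 above C2 above C1.

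For lipolysis, the brighter of 2 Lipe probes gave log2 signals of 6.59 (C1), 6.24 (C2) and 6.17 (C3), against 6.23 (S1), 6.06 (S2) and 5.81 (S3). The strains overlapped and the difference was 0.30 (standard error 0.21, limma adjusted p = 0.525). Here C1 was the highest rat and C3 the lowest of its strain. The dimmer probe, well above background on 4 arrays, differed by 0.25 with a standard error of 0.70. Aqp7, the aquaglyceroporin of fat cells, was well above background only in S3, its quantile-normalized log2 intensity was 2.26 to 3.84 in the congenic rats and 2.99 to 3.71 in the S rats, and no fold is given for it.

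Over the 7 genes in the deposited values, 2 passed both cut-offs as higher in the congenic rats, beside 3.23% of all probes, and 0 as lower, beside 2.34%. An unadjusted limma p under 0.05 with a higher mean in the congenic rats was reached by 4 of 7 (Adipoq, Cfd, Fabp4 and Cidec), beside 8.58% of all probes. After adjustment 0 of 7 passed, as did 0% of all probes, while 3115 of all probes had an unadjusted limma p under 0.05, and the methods' t-test gave 0 after Benjamini-Hochberg adjustment too. The strains did not overlap, with the congenic rats higher, for the same 4 genes, beside 12.4% of all probes, and for 0 of 7 with the S rats higher, beside 5.33%. For each of these 4 genes the exact permutation test gave p = 0.1 (two-sided), the smallest that 3 rats against 3 allow. The 7 tested colon epithelium genes had the same counts, with 2 passed as higher and 4 not overlapping with the congenic rats higher. All 7 differences of the adipocyte genes were above 0, as were 51.3% of all probes. The median of the adipocyte genes was 0.79, where that of all probes was 0.01. In RNA from a tissue piece, fat cell number, RNA per fat cell and expression in other cells cannot be told apart.

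**Figure D2:**
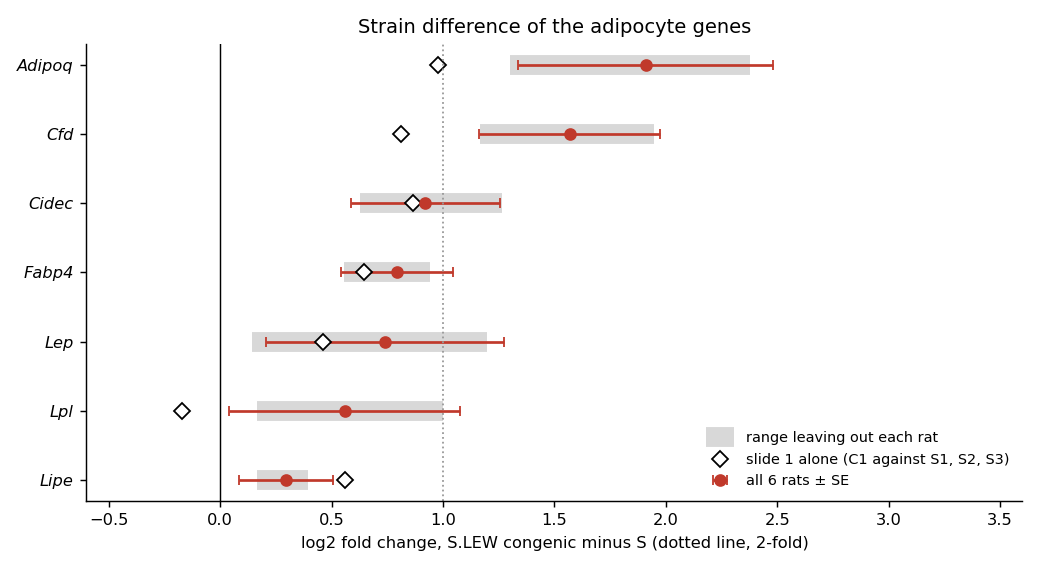
Log2 fold change (S.LEW congenic minus S) of the 7 adipocyte genes in the deposited values. Red points and bars are all 6 rats ± SE, gray bands the range with each rat left out in turn, open diamonds the difference within slide 1 (C1 against 3 S rats), and the dotted line marks 2-fold. Adipoq and Cfd lie right of the dotted line with all 6 rats and left of it within slide 1, and the diamond of Lpl lies at -0.17.

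The genes moved together only in part. C3 above C2 above C1 above every S rat was the order of 4 of 7 genes (Adipoq, Cfd, Fabp4 and Cidec), beside 2.03% of all probes, an order that was read from these members before it was counted over the probes. C3 was the highest of all 6 rats for these 4 and Lpl, 5 of 7, where it was the highest for 16.5% of all probes. The size of the step was not shared: C3 exceeded C1 by 2.15 for Adipoq, 1.56 for Cfd and 1.52 for Lpl, but by 0.25 for Fabp4 and 0.11 for Cidec, and C3 minus C1 was -0.43 for Lipe and -0.64 for Lep. C1 was on slide 1 and C2 and C3 on slide 2, so the steps from C1 to C2 and C3 cannot be told apart from slide.

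Among the S rats the members did not keep 1 order. S1 was the highest S rat for Adipoq, Cfd, Cidec and Lipe, S2 for Fabp4 and Lep, and S3 for Lpl. Across the 6 arrays, the correlation of a member with the mean of the other 6 was 0.97 for Cfd, 0.87 for Adipoq, 0.75 for Cidec, 0.71 for Fabp4, 0.50 for Lpl, 0.33 for Lipe and 0.24 for Lep, values that also hold the difference between the strains and rest on 6 points. Each gene centered on its own mean, the average over the 7 genes was 0.11 (C1), 0.59 (C2) and 0.75 (C3) against -0.37 (S1), -0.63 (S2) and -0.45 (S3). Within slide 1, C1 was above every S rat for 6 of 7 genes, all but Lpl, beside 27.6% of all probes. For Lep, neither C1 (4.46) nor the highest S rat, S2 (4.30), was well above background.

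**Figure D3:**
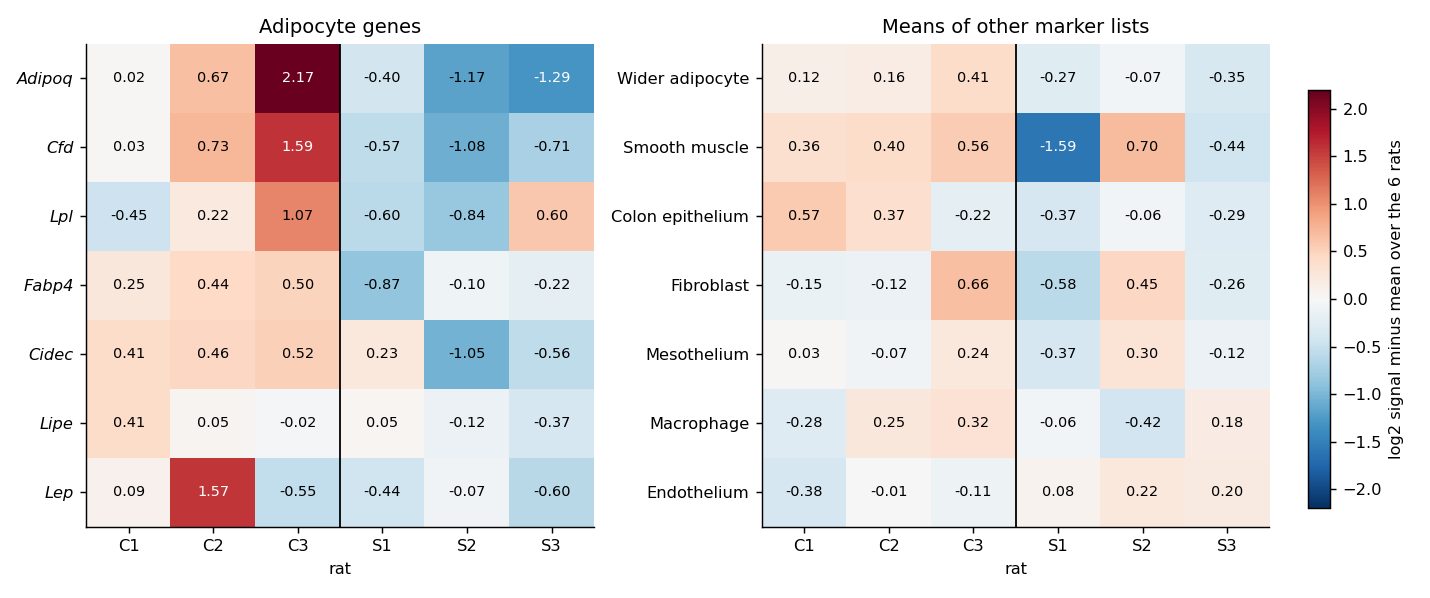
Log2 signal of each rat minus the mean over the 6 rats, for the 7 adipocyte genes (left) and as the mean over the tested genes of 7 marker lists (right); columns are rats, with a line between the strains, and the color scale is shared. C3 is highest for Adipoq, Cfd, Lpl, Fabp4 and Cidec but not for Lipe or Lep, and the smooth muscle list is lowest in S1 and highest in S2.

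A wider list of 48 other genes of fat cells, many of which are also active in muscle, liver or gut epithelium, had 46 genes on the array and 41 in the deposited values. Of these 41, 7 passed both cut-offs as higher in the congenic rats (17.1%, beside the 3.23% of all probes) and 0 as lower, the median difference was 0.48, and 29 lay above 0. The strains did not overlap for 11 with the congenic rats higher (beside 12.4% of all probes) and for 1, Acly of fatty acid synthesis, with the S rats higher (beside 5.33%). Without S2 the number that passed as higher was 11, in a fit in which 9.99% of all probes did so, and without S3 it was 4, beside 1.99% of all probes.

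Pparg, the master regulator of the adipocyte program, which colon epithelium also expresses, had log2 signals of 11.32, 11.18 and 11.30 in C1, C2 and C3, and of 10.31, 9.55 and 9.06 in S1, S2 and S3. The congenic rats were nearly equal and all above the S rats, a difference of 1.63 (standard error 0.33, limma adjusted p = 0.228) that was 1.68 within slide 1. The step from C1 to C3 that Adipoq and Cfd showed was absent, at 11.32 against 11.30. Cebpa, its partner, was well above background on 3 arrays and differed by 0.68 (standard error 0.33, limma adjusted p = 0.415), without passing.

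Adrb3, the adrenergic receptor of fat that triggers lipolysis, had log2 signals of 11.78, 11.67 and 12.17 in C1, C2 and C3, and of 9.14, 11.47 and 9.80 in S1, S2 and S3. Slc2a4, the insulin-responsive glucose transporter of fat and muscle, had 11.94, 11.77 and 12.16, and 9.48, 11.76 and 9.93 in the same rats. In both genes S2 was close to the congenic rats and S1 was lowest. The differences were 1.74 for Adrb3 (standard error 0.58) and 1.57 for Slc2a4 (standard error 0.58), and without S2 they were 2.40 and 2.25. Smooth muscle genes had the same order among the S rats: the mean deviation of 6 tested of 6 (Cnn1, Des, Tagln, Acta2, Actg2, Myh11) was -1.59 in S1, -0.44 in S3 and 0.70 in S2, against 0.36 to 0.56 in the congenic rats, and the part of muscle in the values of Adrb3 and Slc2a4 was not tested.

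The other 4 genes of the wider list that passed were enzymes and a receptor. Dgat2, which completes triglyceride synthesis, differed by 1.35 (standard error 0.50), with S1 at 9.53 above C3 at 9.47. Me1, the malic enzyme that supplies NADPH for fatty acid synthesis, differed by 1.27 (0.31), Mgll, the monoglyceride lipase that ends lipolysis, by 1.18 (0.32), and Acvr1c, the receptor ALK7 of fat cells, by 1.15 (0.19, limma adjusted p = 0.205). In these 4 C3 was not the highest rat. Of the 7, Pparg, Acvr1c and Me1 passed with any 1 rat left out. With normexp background correction the difference of Acvr1c was 0.84 and that of Mgll 0.95, both under 2-fold. Mgll did not pass without S3 (0.93), Dgat2 not without C1, C2, S2 or S3, Adrb3 not without C1, C3, S1 or S3, and Slc2a4 only with all 6 rats or without S2. Within slide 1 Dgat2 (1.67), Slc2a4 (1.55), Adrb3 (1.64) and Me1 (1.32) did not pass. Over the list, C3 was the highest of all 6 rats in 13 of 41 genes, and only Plin2, a droplet protein of most cell types, had the full order of Adipoq, with a difference of 0.30 that did not pass. Retn, the adipokine resistin, chosen after its values were seen, had log2 signals of 6.36 in C1, 7.33 in C2 and 8.28 in C3, and of 6.69, 6.10 and 4.90 in S1, S2 and S3. Its congenic rats stood in the order of Adipoq, but S1 lay above C1 and the difference of 1.43 (standard error 0.62, limma adjusted p = 0.392), which was 0.47 within slide 1, did not pass.

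**Figure D4:**
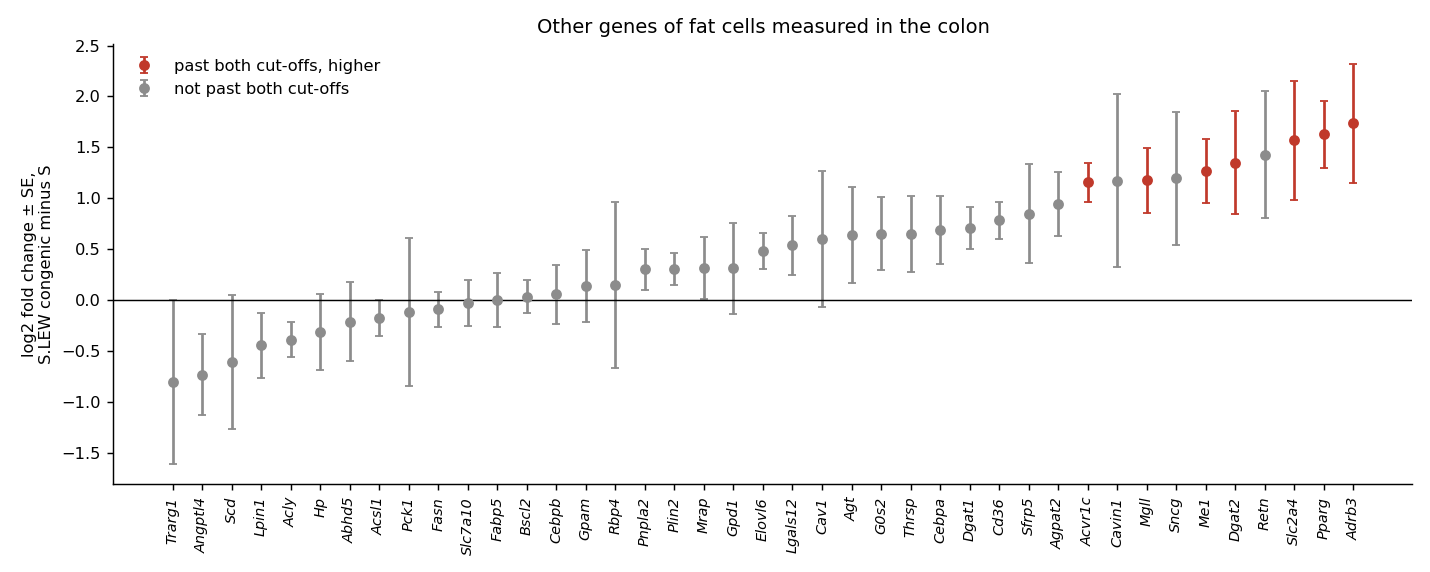
Log2 fold change (S.LEW congenic minus S) ± SE of the 41 tested genes of the wider list of fat cell genes, ordered by value. Red marks the 7 with an unadjusted limma p under 0.05 and at least 2-fold, from Acvr1c at 1.15 to Adrb3 at 1.74, and gray the other 34.

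Markers of other tissues that could come with fat or with the gut wall are given for the same rats. For mesothelium, the cell layer over serosal fat, 0 of 4 tested of 6 listed passed, the median difference was 0.47, and the mean deviation was -0.07 to 0.24 in the congenic rats and -0.37 to 0.30 in the S rats. Krt19, which epithelium also expresses, differed by 0.94 with strains that did not overlap, Upk1b by 0.63 and Wt1 by 0.30, while Msln went the other way. Msln, a defining marker, was at 5.94, 5.58 and 7.83 in C1, C2 and C3 and at 8.25, 7.48 and 7.67 in S1, S2 and S3, with the lowest values in C1 and C2. Its difference of -1.35 (standard error 0.60, limma adjusted p = 0.397) did not pass. Of the brown fat list, all 5 were on the array and 2 were tested. Cidea passed as higher with a difference of 1.08, but not without C3 or S3, and within slide 1 it was 0.97, under 2-fold. Ppargc1a differed by 0.86. For both genes the strains did not overlap, with the congenic rats higher, beside 12.4% of all probes. Ucp1, which defines brown fat, Dio2 and Zic1 were not in the deposited values, which leave out probes detected on fewer than 3 arrays, and were not tested. The mean deviation of Cidea and Ppargc1a was 0.23 to 0.76 in the congenic rats and -0.80 to 0.00 in the S rats. Of 5 fibroblast genes 0 passed, with a median of 0.18. Their mean deviation was highest in C3 at 0.66, followed by S2 at 0.45.

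Fat of the gut also holds macrophages and, in its lymph nodes, lymphocytes. Of 5 macrophage genes 2 passed as higher, Cd163 at 1.85 and Mrc1 at 1.03, and 1 as lower, Csf1r at -1.42, with a median of 0.45 and a mean deviation of -0.28 to 0.32 in the congenic rats and -0.42 to 0.18 in the S rats. Mrc1, the mannose receptor of resident macrophages, stood at 5.74 in C1, 6.25 in C2 and 6.81 in C3, and at 4.91, 5.39 and 5.42 in S1, S2 and S3, with C3 above C2 above C1 above every S rat. Within slide 1 Mrc1 differed by 0.50 and Cd163 by 1.01, and neither passed. Of the lymphoid genes, Ccl19, a chemokine of lymphoid tissue, and Cd3g, a subunit of the T cell receptor complex, passed as lower, at -6.50 and -2.31. Ccl19 had log2 signals of 14.08 in S1 and 13.78 in S3 but 5.28 in S2, and of 3.71 to 5.23 in the congenic rats. Its difference was -9.38 with S2 left out, -4.98 with S1 and -5.14 with S3 left out, and that of Cd3g was -3.10 with S2 left out. Ccl19 was well above background in only 1 of the 3 congenic rats, so that the size of its difference is uncertain. Within slide 1 Ccl19 (-6.35), Cd3g (-1.63) and Csf1r (-1.45) did not pass. With 1 rat left out, Ccl19 and Csf1r passed only where that rat was S2, Cd3g did not pass without C3 or S3, and Mrc1 not without C3 or S1. Mrc1 also fell under 2-fold with scaling to the 75th percentile (0.95) and with normexp background correction (0.41).

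Of 7 colon epithelium genes 2 passed as higher (Slc26a3 at 1.07 and Vil1 at 1.01), and the median was 0.81. The strains did not overlap for 4 of 7 with the congenic rats higher, beside 12.4% of all probes. They did not overlap for 1, Aqp8, with the S rats higher, beside 5.33%. Aqp8 averaged 7.71 against 8.71 in the S rats. Its difference of -0.998 (limma unadjusted p = 0.00718) fell just short of 2-fold, so that it did not pass. The mean deviation of this list was 0.57 in C1 and 0.37 in C2 but -0.22 in C3, and -0.37 to -0.06 in the S rats, so that C3, with the highest Adipoq and Cfd, was the lowest congenic rat. Of 4 tested of 5 genes of enterocyte lipid uptake 2 passed as higher (Fabp1 at 4.41 and Fabp2 at 1.69), the median was 1.15, and the mean deviation was 0.55 to 1.08 in the congenic rats and -1.36 to 0.08 in the S rats. For Fabp1 and Fabp2 the strains did not overlap, with the congenic rats higher. Fabp1 differed by 5.89 with S1 left out, 3.75 with S2 and 3.58 with S3 left out, and Vil1 and Slc26a3 each lost the call in several of the fits with 1 rat left out (without C1 at 0.87 and 0.83). Within slide 1 Fabp1 differed by 4.44 and did not pass. Of the smooth muscle genes named above 0 of 6 passed, with a median of 0.91, which was 0.31 without S1 and 1.49 without S2. Of 7 tested of 8 skeletal muscle genes 0 passed as higher and 3 as lower (Mybpc1, Myh1 and Tnnt3), the median was -1.39, or -0.30 without S2, and the mean deviation was -1.04 to -0.51 in the congenic rats and -0.14 to 1.51 in the S rats. Mybpc1 and Myh1 were not well above background in any congenic rat, which leaves bounds of at least 7.15-fold and at least 2.09-fold lower, each the S mean against the lowest signal well above background on the congenic arrays, and Myh1 did not pass with normexp background correction. The part of any of these tissues in the values of the adipocyte genes was not tested.

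Members aside, the 10 genes whose pattern over the 6 arrays was most like the mean of the 7 adipocyte genes were in none of the marker lists. Of 4407 named genes with an SD of at least 0.5 over the arrays, 41 correlated above 0.9 (0.930%). The first 10 were Dpep3 (0.98), C6 (0.98), Adra1d (0.98), Capn8 (0.97), C8h3orf18 (0.97), L3hypdh (0.97), Nat8f5 (0.97), Inmt (0.97), Gprc5c (0.96) and Palmd (0.96). Dpep3 and Inmt were well above background on only 3 of 6 arrays and Nat8f5 on 4. These correlations also hold the difference between the strains and rest on 6 points. C6, a component of the complement membrane attack complex, had log2 signals of 6.31, 7.24 and 7.88 in C1, C2 and C3, and of 5.16, 4.61 and 4.28 in S1, S2 and S3. Adra1d, an adrenergic receptor of vascular smooth muscle, had 7.58, 8.10 and 9.03, and 6.42, 5.78 and 5.74. Both had the order C3 above C2 above C1 above every S rat, by a choice that used this pattern.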

How the data were processed

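Colon RNA of 3 S.LEW congenic and 3 S rats was read on 6 single-color Agilent arrays. The authors extracted spot intensities with Agilent Feature Extraction 11.0.1.1, and the deposited scanner files hold these background-corrected intensities. The authors then quantile-normalized them in GeneSpring and left out probes that fewer than 3 of the 6 arrays detected; the deposited log2 table of 23997 probes was used here. It correlated at over 0.9999 with quantile-normalized scanner intensities on each array. Scanner intensities served for Aqp7 and as alternatives, without control and outlier spots and with spots of a probe averaged.

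Probes were named by matching transcript accessions to RefSeq genes of GRCr8 (18005 of 30367 probes, 15168 genes). Where a gene had several probes, the one with the highest mean was used. The strain comparison used limma 3.58.1 (R 4.3.3) on all deposited probes, without covariates, with Benjamini-Hochberg adjustment over all of them. The methods' t-test was run on the same values. The code was tested on simulated data. Plots were drawn with matplotlib 3.10.9. The number of arrays, 6, and for dim probes the signal over background limit the precision. Same-numbered rats did not deviate together (correlations -0.02, -0.13 and -0.06 over the probes), so the replicate numbers were not used as pairs. Cage mates are not given in the labels.

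The members, the lists of other markers (wider adipocyte, brown fat, mesothelium, lymphoid, macrophage, smooth muscle, skeletal muscle, endothelium, fibroblast, colon epithelium, enterocyte lipid uptake) and the tests were chosen with earlier results of these data known. Named were all members, wider-list genes past the cut-offs plus Pparg and Cebpa, up to 3 genes of each other list by absolute change, and the 10 most similar genes. The rule was not followed in full. Myh2 of skeletal muscle, at -2.11 a larger change than Tnnt3, and the genes of the endothelium and fibroblast lists were not named in the results. Genes named outside this rule, such as Acly, Plin2, Retn, Msln and Tnnt3, were chosen after their values were seen. Some values of the lymphoid list are not reported here. Alternatives were other normalizations, filters, background correction, tests, blocks and leaving out each rat.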

Additional observations from a re-analysis of the deposited data

How the results depend on the processing

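The counts, median and differences of the members and the counts of the wider list were recomputed under 10 other settings and by leaving out 1 rat at a time. The orders of the rats, the correlations and the similarity ranking were not. With slide as a block, and on slide 1 alone, 0 members passed both cut-offs, and the difference of Lpl was -0.17. On slide 1 alone, where C1 is the lone congenic rat and the spread is that of the S rats, 4 genes of the wider list passed as higher. By the methods' t-test 1 member passed (Cfd, not Adipoq) and 4 genes of the wider list. With each rat left out, 2 to 3 members passed as higher, beside 1.99% to 9.99% of all probes, and 0 as lower. Of the members, 0 to 1 passed an adjusted limma p of 0.05, and the median difference was 0.71 to 0.92. The strains did not overlap for 4 to 6 members, but with 1 rat fewer the strains separate more easily. The share of all probes without overlap was not computed for these fits. In the same fits 4 to 11 genes of the wider list passed as higher and 0 to 1 as lower. The fit with the replicate number as a block (replicate block) gave 2 members and 7 genes of the wider list as higher, the same counts as without it. The median member difference was lowest with normexp background correction, at 0.55. Scaling to the 75th percentile turned the split of all probes called from 776 higher and 562 lower to 692 and 760, and moved their median difference from 0.01 to 0.00, and normexp gave 359 and 380. The counts over all probes were 551 and 227 with slide as a block, 443 and 187 on slide 1 alone, 515 and 178 by the methods' t-test, 2397 and 1725 without S2, and 477 and 192 without S3. The causes were not tested. No difference was computed for Plin1 or Plin4, and Aqp7 was too dim for one.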
